A study of Rattus norvegicus with 8 samples.

Results

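Collagen chains were followed in CD31-selected cells from rat lung, in animals given monocrotaline or saline. A gene counted as a collagen chain when the symbol found for its array probe through the probe's accession was Col, a number, a, and a number. Of 44 rat genes so named in the RefSeq name table, 18 had a probe matched in this way, among 18768 genes tested on the arrays. The other 26 are not analysed here, among them Col4a2, Col4a3, Col4a5, Col4a6, Col5a2, Col6a1, Col6a3, Col12a1 and Col15a1. The 18 comprised 7 fibrillar chains (Col1a1, Col1a2, Col2a1, Col3a1, Col5a1, Col5a3 and Col11a2) and 2 chains of basement membrane collagen (Col4a1 and Col4a4). The rest were Col6a2, Col7a1, Col8a1, Col9a1, Col9a2, Col13a1, Col14a1, Col18a1 and Col23a1.

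All animals were Sprague-Dawley rats of 8 to 10 weeks. The treated group of 4 received monocrotaline subcutaneously at 60 mg/kg and the control group of 4 received saline. Lungs were taken 5 days later, digested with collagenase, and cells binding CD31 on magnetic beads were lysed without culture. Monocrotaline is a plant alkaloid that gives rats pulmonary arterial hypertension within weeks, and the comparison asks how the lung endothelium differs early in that model. CD31 is also carried by platelets and some leukocytes, and the RNA is that of the whole bead fraction, so fewer cells of a type and less RNA per cell cannot be told apart.

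Collagens are trimers of 3 alpha chains wound into a triple helix. Fibrillar collagens, of which type I and type III are the main ones in lung interstitium and vessel adventitia, are made mostly by fibroblasts and smooth muscle cells. They are secreted as procollagens and assemble into fibrils that bear tension. Type IV collagen forms a sheet-like network, and its alpha 1 and alpha 2 chains are laid down by endothelial cells in the basement membrane on which they sit. The genes of Col4a1 and Col4a2 lie next to each other in the GRCr8 gene order, as do those of Col4a3 and Col4a4, Col3a1 and Col5a2, and Col6a1 and Col6a2.

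Promoter sequences were found for 13 of the 18 chains in the RefSeq table of GRCr8, taken as the 250 bases before each gene's start in that table. The stretch from 250 to 151 bases before the start is shown for 2 fibrillar and 2 basement membrane chains, since these classes are the ones compared. Bases in capitals mark a CCAAT box (CCAAT, or ATTGG on the other strand) or a TATA box (TATAAA or TTTATA). The 2 fibrillar chains shown are those with a CCAAT box, and every CCAAT box found lies in this stretch. Col5a1 and Col11a2 have no CCAAT box and are not shown. For Col1a1, Col2a1 and Col3a1 no promoter was found. The stretches are chr4:33518307-33518406 (+ strand) for Col1a2, chr8:27626099-27626198 (- strand) for Col5a3, chr16:84885347-84885446 (+ strand) for Col4a1 and chr9:91323728-91323827 (- strand) for Col4a4.
Col1a2: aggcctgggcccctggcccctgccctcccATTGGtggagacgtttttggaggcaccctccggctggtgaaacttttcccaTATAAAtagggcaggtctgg
Col5a3: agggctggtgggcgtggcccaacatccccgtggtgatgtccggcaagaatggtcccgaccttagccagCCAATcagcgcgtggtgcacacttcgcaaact
Col4a1: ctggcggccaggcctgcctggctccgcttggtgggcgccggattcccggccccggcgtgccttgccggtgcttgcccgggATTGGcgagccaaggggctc
Col4a4: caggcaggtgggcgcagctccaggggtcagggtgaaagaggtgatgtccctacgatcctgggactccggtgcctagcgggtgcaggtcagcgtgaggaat
Over the whole 250 bases a CCAAT box was found in 3 of the 13 chains, Col1a2, Col5a3 and Col4a1, against 34% of all 33469 promoters of that length. A TATA box was found in 2, Col1a2 and Col13a1, against 12.9% of all. A GC box (GGGCGG or CCGCCC, either strand) was found in 8 of the 13, against 30.5% of all, and Col1a2 and Col4a4 were among those without one. No CCAAT, TATA or GC box overlapped one of another kind in the 3 chains with a CCAAT box. The TATA letters of Col1a2 begin 170 bases before the table's start, so that start may not be the gene's usual transcription start and positions in this promoter are relative to the table only. A match describes the sequence only and is no shown binding site.

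Of the 18 chains with a matched probe, 16 were detected on all 8 arrays. Signals are given as scaled log2 signals, which are log2 processed signals less the 75th percentile of the same array, so that 0 stands for that percentile. By the scanner software's flag for a spot well above background, all 18 chains were detected on 6 of the 8 arrays and 17 on saline replicate 2 and monocrotaline replicate 2. The chain missing was Col13a1 on the first of these and Col9a2 on the second. The dimmest chains were Col2a1, Col9a2 and Col9a1, with mean scaled log2 signals of -5.65, -5.51 and -4.43. No spot of a collagen probe was saturated. The share of all spots above background was lowest on saline replicate 2 (70.8%) and highest on monocrotaline replicate 3 (77.7%). The 4 arrays per group limit the precision of every value. All 8 arrays were on 1 slide with saline in 1 row and monocrotaline in the other, so slide row and treatment cannot be told apart. Of 14 endothelial markers 11 were measured, Pecam1, Kdr and Cdh5 among them, and all 11 were above background on all 8 arrays. Of 14 fibroblast markers 12 were measured and 11 of them, such as Pdgfra and Dcn, were above background on all 8 arrays too.

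No collagen chain passed the test. Of the 18 chains 0 were called higher and 0 lower after monocrotaline (limma, Benjamini-Hochberg adjusted p under 0.05 over all genes), against 1.47% of all 18768 genes, where 264 rose (1.41%) and 11 fell (0.0586%). Without 1 array these background counts became 54 to 281 and 0 to 95, while the collagen counts remained 0 and 0. At an unadjusted p under 0.05 there was 1 chain, Col18a1, with a positive fold change, against 14% of all genes, 6.75% with a positive and 7.2% with a negative one. In 0 of the 18 chains did the 4 monocrotaline arrays lie wholly on one side of the 4 saline arrays, against 8.57% of all genes. The log2 fold change was positive for 12 of 18 chains, against 46.1% of all genes, and its median was 0.36, against -0.03 over all genes. A p above the threshold does not show that a chain kept its level, and the confidence intervals below give the sizes that remain possible.

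**Figure D1:**
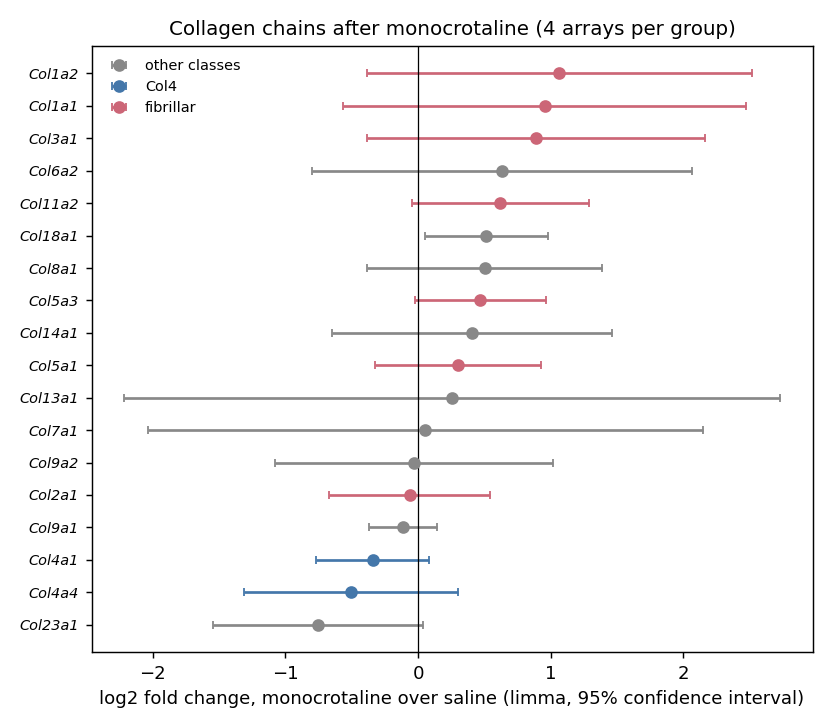
Log2 fold change of each of the 18 collagen chains, monocrotaline over saline, on the x axis with its 95% confidence interval from limma (4 arrays per group), 1 row per chain. The interval lies clear of 0 for Col18a1 only (0.05 to 0.98), before adjustment for the number of genes, and it is widest for Col13a1 (-2.21 to 2.73).

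The chains of type I and type III collagen, the bulk of interstitial fibrils, had higher means after monocrotaline with a spread as wide as the difference. Col1a2, the alpha 2 chain of type I, had scaled log2 signals of 4.27, 1.77, 4.57 and 2.98 on saline replicates 1 to 4 and of 4.89, 4.22, 5.20 and 3.54 on monocrotaline replicates 1 to 4. Saline replicates 2 and 4 were the low ones, and saline replicates 1 and 3 lay within the monocrotaline range, so the groups overlapped. Its log2 fold change was 1.06 ± 0.63 (SE, 4 arrays a group, limma adjusted p = 0.487), a 2.09-fold difference of means with a 95% interval of -0.39 to 2.52. Leaving out saline replicate 2 moved its log2 fold change to 0.52, and leaving out saline replicate 3 moved it to 1.46.

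Col1a1, the alpha 1 chain of the same trimer, ranked the 8 arrays in the same order. Its scaled log2 signals were 3.71, 1.14, 3.83 and 1.97 on the saline arrays and 4.06, 3.26, 4.49 and 2.66 on the monocrotaline arrays. The highest and lowest arrays, monocrotaline replicate 3 and saline replicate 2, were those of Col1a2 as well, and they lay 10.2-fold apart in Col1a1 and 10.8-fold apart in Col1a2. Col1a1 had a log2 fold change of 0.95 ± 0.66 (SE, 4 arrays a group, limma adjusted p = 0.558), which became 0.45 without saline replicate 2. A second Col1a1 probe, not used in the fit, differed by 1.03 between the group means.

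Col3a1, the single chain of type III collagen, gave 3.84, 1.90, 4.59 and 2.64 on the saline arrays and 4.69, 3.97, 4.30 and 3.56 on the monocrotaline arrays. Its saline SD of 1.21 was larger than the monocrotaline SD of 0.48, and saline replicate 3 lay above 3 of the 4 monocrotaline arrays. For Col3a1 the log2 fold change was 0.89 ± 0.56 (SE, 4 arrays a group, limma adjusted p = 0.513), 0.44 without saline replicate 2 and 1.34 without saline replicate 3.

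The minor fibrillar chains spread less. Col5a1, a chain of the type V collagen that nucleates type I fibrils, had signals of -0.72, -1.40, -0.51 and -1.06 on the saline arrays and -0.06, -0.60, -0.64 and -1.19 on the monocrotaline arrays, with a log2 fold change of 0.30 ± 0.27 (SE, 4 arrays a group, limma adjusted p = 0.668). Its groups overlapped over most of their range, and that value became 0.11 without monocrotaline replicate 1, 0.14 without saline replicate 2 and 0.49 without monocrotaline replicate 4. Col5a3, a further type V chain, had signals of -1.15, -1.36, -1.07 and -0.91 against -0.07, -1.03, -0.66 and -0.85. Monocrotaline replicate 1 stood highest, and monocrotaline replicate 2 lay below 1 saline array only. Its log2 fold change was 0.47 ± 0.22 (SE, 4 arrays a group, limma adjusted p = 0.381), with a 95% interval of -0.03 to 0.96, and it was 0.27 without monocrotaline replicate 1. Col11a2, a type XI chain best known from cartilage, gave -2.13, -1.99, -2.69 and -3.02 against -2.39, -1.97, -1.46 and -1.53, a log2 fold change of 0.62 ± 0.29. Col2a1, the cartilage fibril chain, had a log2 fold change of -0.06 ± 0.26, with signals of -6.09 to -5.02 on the saline arrays and -5.93 to -5.40 on the monocrotaline arrays.

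The 2 type IV chains, Col4a1 and Col4a4, had lower means after monocrotaline. Col4a1, the endothelial basement membrane chain, gave 4.99, 4.84, 5.10 and 5.47 on the saline arrays and 4.98, 5.00, 4.55 and 4.50 on the monocrotaline arrays. Monocrotaline replicates 3 and 4 lay below every saline array, while replicates 1 and 2 lay among them. Its log2 fold change was -0.34 ± 0.19 (SE, 4 arrays a group, limma adjusted p = 0.449), and the 95% interval of -0.77 to 0.09 does not reach a 2-fold fall. Without saline replicate 4 the value was -0.22. A second Col4a1 probe differed by -0.23 between the group means. Col4a4, a chain of the type IV network that alveolar epithelium and kidney glomeruli use together with Col4a3, gave -3.56, -3.05, -2.25 and -2.52 against -3.13, -2.76, -4.08 and -3.43. Monocrotaline replicate 3 was the lowest array and saline replicate 3 the highest, and the log2 fold change was -0.50 ± 0.35 (SE, 4 arrays a group, limma adjusted p = 0.561), -0.26 without monocrotaline replicate 3, -0.31 without saline replicate 3 and -0.74 without saline replicate 1.

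**Figure D2:**
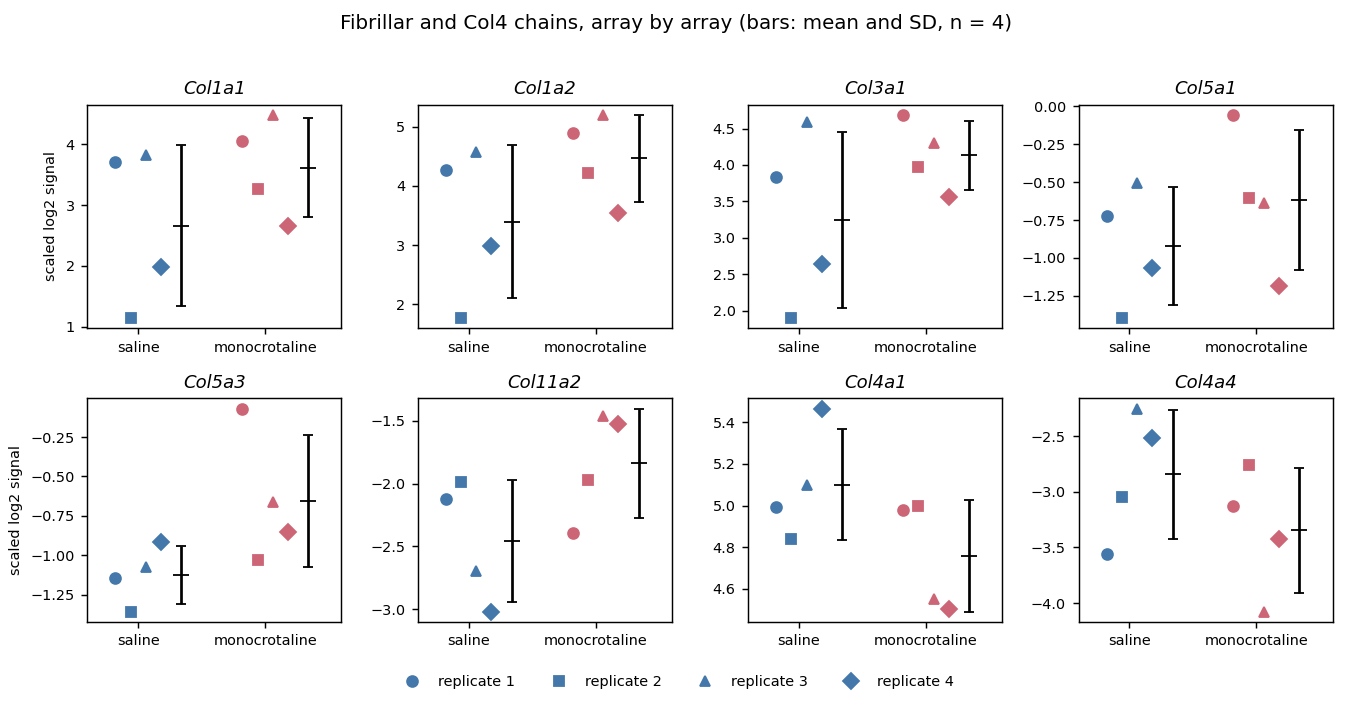
Scaled log2 signal (y axis, a separate range per panel) of 6 fibrillar and 2 Col4 chains on each of the 4 saline and 4 monocrotaline arrays, with marker shape giving the replicate number and bars the group mean and SD (n = 4). Saline replicate 2 is lowest in Col1a1, Col1a2, Col3a1, Col5a1 and Col5a3, whereas the lowest arrays of Col4a1 and Col4a4 are monocrotaline replicates 4 and 3.

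Set against each other, the fibrillar and Col4 chains lay on opposite sides of 0. The median log2 fold change was 0.62 over the 7 fibrillar chains, 6 of them positive, and -0.42 over the 2 Col4 chains, both negative, beside a median of -0.03 over all genes tested. The mean over the fibrillar chains, each less its own saline mean, was 0.52, -0.63, 0.49 and -0.38 on the saline arrays and 0.86, 0.43, 0.95 and 0.18 on the monocrotaline arrays. The same mean over Col4a1 and Col4a4 was -0.41, -0.23, 0.30 and 0.35 on the saline arrays and -0.20, -0.0080, -0.89 and -0.59 on the monocrotaline arrays. In both classes the groups overlapped. The fibrillar mean less the Col4 mean was 0.93, -0.40, 0.20 and -0.73 on the saline arrays and 1.06, 0.43, 1.84 and 0.77 on the monocrotaline arrays. Saline replicate 1 lay above 2 of the monocrotaline arrays. The monocrotaline mean of this difference was 1.03 ± 0.60 (SD, n = 4) about a saline mean set to 0 with an SD of 0.73. No p is given over the chains of a class because they are no replicates. The chains were also chosen with results of these data known.

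Markers of other cells were followed array by array beside these chains. The mean of the 12 measured fibroblast markers, each less its saline mean, spanned -1.66 to 1.47 on the saline arrays and 0.51 to 1.52 on the monocrotaline arrays. It was lowest on saline replicate 2, the array where Col1a1, Col1a2 and Col3a1 were lowest. This was not particular to fibroblast markers. Saline replicate 2 was also the lowest saline array for alveolar type 2 (-2.01), smooth muscle (-1.17), airway (-1.03), alveolar type 1 (-0.77) and endothelial (-0.28) markers. It was not the lowest for leukocyte (0.12) or mesothelial (0.35) markers. Among the monocrotaline arrays the fibrillar mean was highest on replicates 3 (0.95) and 1 (0.86). The mesothelial (2.93 and 2.23) and airway (3.13 and 3.00) means were highest on these replicates as well. So were the fibroblast, red cell and Schwann cell means. The leukocyte mean was highest on replicates 3 and 4. The smooth muscle, alveolar type 1, alveolar type 2 and endothelial means were highest on replicate 2. Of the 12 fibroblast markers 0 were called, the log2 fold change was above 0 for each, and its median was 1.20 (Mfap4, the brightest, 1.52 ± 1.13). The mean of the 12 smooth muscle and pericyte markers spanned -1.17 to 1.04 and -0.16 to 1.26 in the same order of groups, with a median log2 fold change of 0.56 and 0 calls (Actg2, the brightest, 0.40 ± 0.66). The mean of the 2 mesothelial markers measured of 6, on the lung's outer lining, spanned -0.88 to 0.44 on the saline arrays. On the monocrotaline arrays it spanned 0.55 to 2.93, though for each of these genes alone the groups overlapped. Upk1b, the brighter of them, had a log2 fold change of 1.58 ± 0.52 (SE, 4 arrays a group, limma adjusted p = 0.24). Of 9 cartilage markers only Comp was measured (0.40 ± 0.43), while Acan, Cnmd, Matn1 and Hapln1 had probes that did not pass the filter on dim signals. The endothelial markers had a median log2 fold change of -0.50, with 11 of 11 negative and 0 called (Kdr, the brightest, -0.15 ± 0.24), and their mean spanned -0.28 to 0.37 on the saline arrays and -0.85 to -0.09 on the monocrotaline arrays. On the monocrotaline arrays both this mean and that of the Col4 chains were nearest to the saline level on replicate 2. Their lowest arrays differed. The Col4 mean was lowest on monocrotaline replicate 3 (-0.89) and, among saline arrays, on replicate 1 (-0.41). The endothelial mean was lowest on monocrotaline replicate 4 (-0.85) and, among saline arrays, on replicate 2 (-0.28). The other lists gave 0 calls as well. The median log2 fold change was 1.93 for 7 airway markers, 6 of 7 positive (Tppp3, the brightest and the negative one, -0.54 ± 0.26). It was 0.37 for 7 alveolar type 2 markers (Sftpc 0.30 ± 0.69). For 7 alveolar type 1 markers it was -0.18, with 4 negative and 3 positive (Clic5, the brightest, -0.40 ± 0.28). The median was 0.86 for 11 leukocyte markers, 9 of 11 positive (Lyz2, the brightest, -0.34 ± 0.23). It was 0.88 for 5 red cell markers (Hba-a1 0.52 ± 0.42) and -0.04 for 5 Schwann cell markers (Prx -0.18 ± 0.49). The red cell mean was 0.71, 0.48, 2.85 and -0.28 on monocrotaline replicates 1 to 4, against -0.68 to 0.58 on the saline arrays. The airway mean was 3.00, 0.37, 3.13 and 0.54 on the same replicates, against -1.03 to 0.73 on the saline arrays. Picked after their values were seen, the T cell genes Cd2, Cd3g and Cd3e had log2 fold changes of 1.94 ± 0.39, 1.90 ± 0.38 and 1.77 ± 0.39 with no overlap between the groups (limma adjusted p = 0.059, 0.0545 and 0.0766). The airway secretory genes Bpifa1, Scgb3a2 and Scgb3a1, picked in the same way, had 3.14 ± 1.06, 2.27 ± 0.95 and 1.93 ± 0.67 (limma adjusted p = 0.251, 0.339 and 0.262). The part of these marker levels in the collagen differences was not tested.

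**Figure D3:**
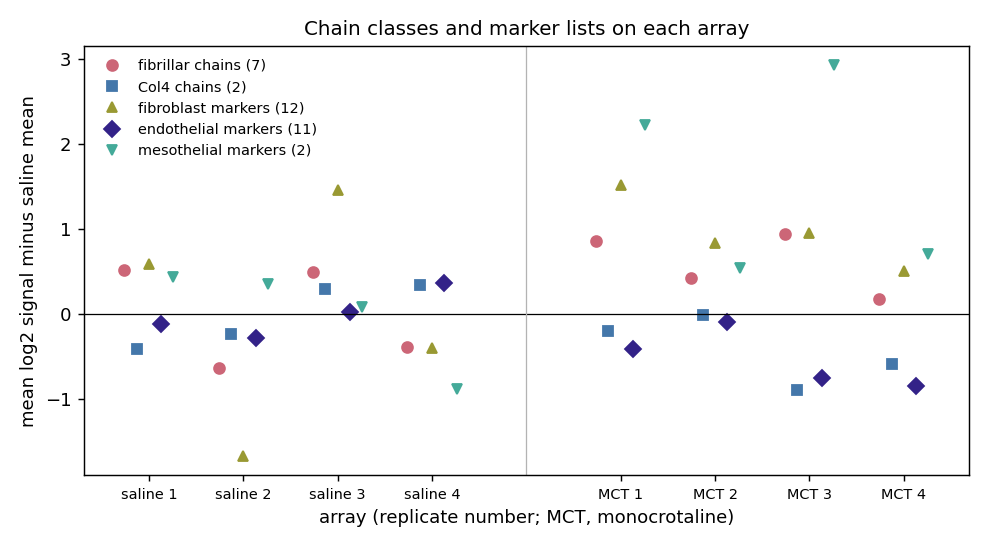
Mean log2 signal less the saline mean (y axis) of the 7 fibrillar chains, the 2 Col4 chains and the fibroblast, endothelial and mesothelial marker lists on each array (x axis, MCT for monocrotaline, points shifted sideways for legibility). The fibrillar points lie between -0.63 and 0.95 and the fibroblast points between -1.66 and 1.52, with both at their lowest on saline replicate 2.

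The spread within a group set the chains apart from one another. The residual SD, which is the SD about the group means pooled over both groups, was 1.10 for Col1a1, 1.05 for Col1a2, 1.03 for Col6a2 and 0.92 for Col3a1, at the 96.8th, 96.3rd, 96.1st and 94.7th percentile of all genes tested. It was 0.27 for Col4a1, at the 47.2nd percentile, and 0.10 for Col9a1, at the 3.5th. In all 8 of 18 chains lay above the 90th percentile and 2 below the 50th. Saline replicate 2 was the lowest saline array in 9 of the 18 chains.

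Col6a2, a chain of the beaded filaments that link cells to the interstitial matrix, gave 2.49, 0.84, 3.84 and 2.30 on the saline arrays and 3.94, 3.38, 2.38 and 2.30 on the monocrotaline arrays. Saline replicate 2 was again lowest and saline replicate 3 among the highest, but monocrotaline replicate 3, highest in type I collagen, was not high here. Its log2 fold change was 0.63 ± 0.63 (SE, 4 arrays a group, limma adjusted p = 0.697), 0.12 without saline replicate 2 and 1.12 without saline replicate 3. Leaving out monocrotaline replicate 1 gave 0.32.

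Col18a1, the vascular basement membrane chain from whose end endostatin is cut, had the lowest p of the family. Its signals were 0.48, 0.68, 0.21 and 0.83 on the saline arrays and 0.97, 1.51, 0.73 and 1.04 on the monocrotaline arrays. Of the monocrotaline arrays 3 lay above all saline arrays, and replicate 3 lay between saline replicates 2 and 4. The log2 fold change of 0.51 ± 0.20 (SE, 4 arrays a group, limma unadjusted p = 0.0338, adjusted p = 0.32) is a 1.43-fold difference of means. Over the 20 other settings tried its limma adjusted p was 0.263 to 0.601, and it was positive in all of them. Col8a1, a short-chain network collagen made by endothelial and smooth muscle cells, gave -1.51, -1.49, -3.23 and -1.58 against -1.41, -1.13, -1.65 and -1.60. The low saline replicate 3 alone made the saline mean low, and the log2 fold change of 0.50 ± 0.39 became 0.08 without it.

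Col13a1 and Col7a1 had the largest residual SDs of the 18 chains. Col13a1, a transmembrane collagen of cell adhesions and in mouse lung a marker of a matrix fibroblast population, gave -3.92, -5.87, -1.88 and -4.51 on the saline arrays and -2.19, -2.51, -6.41 and -4.04 on the monocrotaline arrays. Its highest and lowest arrays lay 23.1-fold apart, saline replicate 3 at one end and monocrotaline replicate 3 at the other. Its residual SD of 1.80 was at the 99.7th percentile. Both values rest in part on dim readings. Col13a1 was not above background on saline replicate 2, and its reading on monocrotaline replicate 3, though flagged as above, was dimmer still. Its log2 fold change of 0.26 ± 1.08 turned negative, at -0.35, without saline replicate 2, at -0.28 without monocrotaline replicate 1 and at -0.17 without monocrotaline replicate 2.

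Col7a1, the chain of the fibrils that anchor epithelial basement membranes, showed the same pair of extreme arrays. It gave -4.09, -4.63, -0.99 and -4.50 against -2.08, -3.11, -5.15 and -3.67, a log2 fold change of 0.05 ± 0.91. Col14a1, a fibril-associated chain and in mouse lung a marker of a different matrix fibroblast population from Col13a1, had its extremes on the same arrays with the ends exchanged. Its signals were 0.64, -0.13, -0.79 and 0.26 against 0.44, 0.24, 1.53 and -0.59, with saline replicate 3 lowest and monocrotaline replicate 3 highest. A second Col14a1 probe had the same lowest and highest arrays, at -5.06 and -2.18. Col14a1 had a log2 fold change of 0.41 ± 0.46, which became 0.03 without monocrotaline replicate 3, 0.15 without saline replicate 3, 0.62 without saline replicate 1 and 0.74 without monocrotaline replicate 4.

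Col23a1, a transmembrane collagen, had the most negative log2 fold change of the 18 chains, -0.76 ± 0.35 (SE, 4 arrays a group, limma adjusted p = 0.38). Its signals were -2.87, -3.27, -2.69 and -3.95 on the saline arrays and -3.25, -4.21, -4.53 and -3.81 on the monocrotaline arrays, where saline replicate 4 lay among the monocrotaline arrays. Its second probe differed by -0.66 between the group means. The fibril-associated cartilage chains Col9a1 and Col9a2 had log2 fold changes of -0.11 ± 0.11 and -0.03 ± 0.46. Col9a1 has 3 probes, of which the brightest was used, 1 was above background on no array and 1 differed by 0.08, opposite in sign to the brightest. In the other 5 chains with more than 1 probe the probes differed in the same direction.

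**Figure D4:**
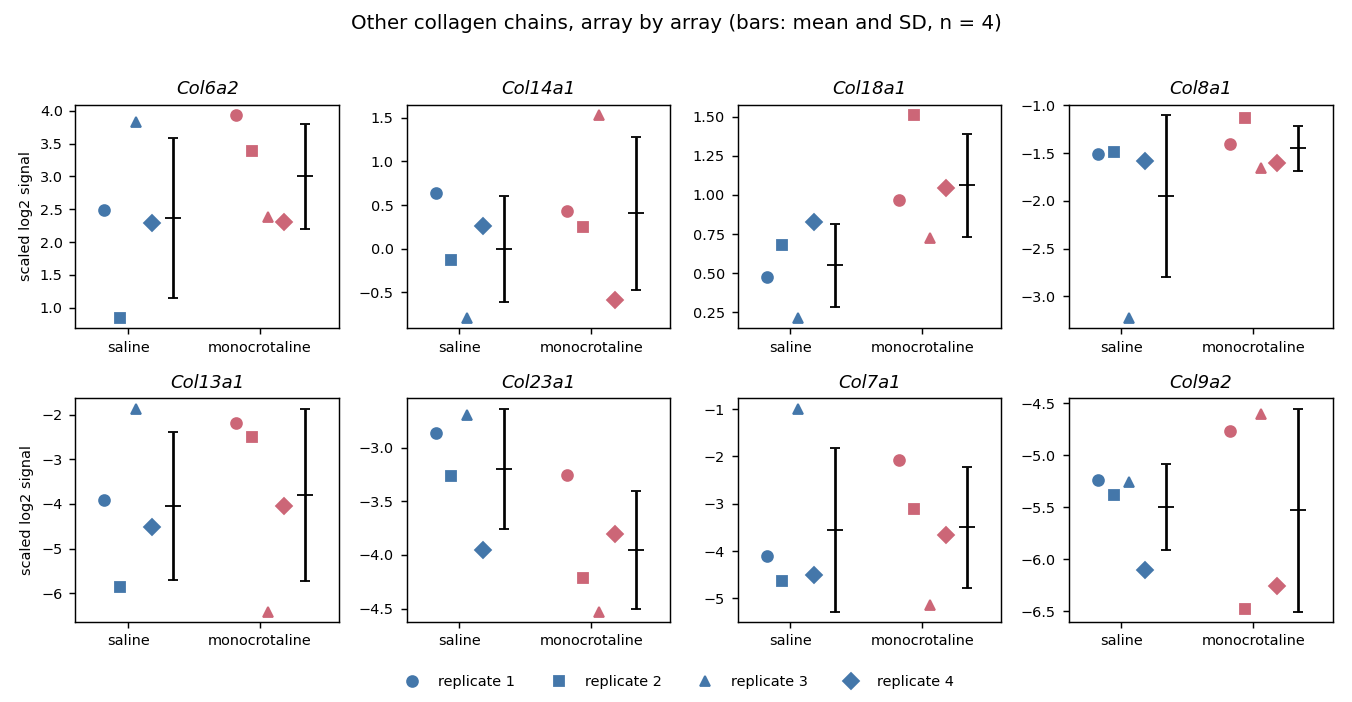
Scaled log2 signal (y axis, a separate range per panel) of 8 chains outside the fibrillar and Col4 classes on each array, with marker shape giving the replicate number and bars the group mean and SD (n = 4). Saline replicate 3 is highest in Col13a1, Col7a1 and Col23a1 and lowest in Col14a1, Col18a1 and Col8a1.

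The genes that make and handle collagen gave 0 calls as well. Of 22 genes of collagen synthesis, folding and secretion 19 were measured, 0 rose and 0 fell, and 15 had a negative log2 fold change, with a median of -0.21. P4hb, the shared subunit of prolyl 4-hydroxylase, had 0.10 ± 0.19 and Serpinh1, the collagen chaperone HSP47, had -0.41 ± 0.25. Of 14 genes of procollagen processing and crosslinking 8 were measured, with 0 calls and a median of 0.01. Bmp1, the procollagen C-proteinase, had -0.64 ± 0.22 (limma adjusted p = 0.262), and Pcolce, which enhances that cleavage, had 1.19 ± 0.56 (limma adjusted p = 0.389). Pcolce and Bmp1 thus had values of opposite sign, neither past the threshold.

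Of 16 fibril partners 14 were measured, 13 with a positive log2 fold change and 0 called, with a median of 0.66. Dcn and Lum of this list are also on the fibroblast marker list. Bgn, biglycan, had 0.12 ± 0.31 and Eln, elastin, had -0.11 ± 0.19. Fmod, fibromodulin, which binds type I collagen fibrils, was picked after its values were seen and had 1.63 ± 0.50 (SE, 4 arrays a group, limma adjusted p = 0.197). Of 16 basement membrane partners 8 were measured, with 0 calls and a median of -0.04. Sparc, a matricellular protein that binds collagen, had -0.31 ± 0.20, and Agrn, the proteoglycan agrin, had -0.60 ± 0.20. Of 11 collagen receptors 5 were measured, with 0 calls and a median of 0.09. Itga1, an integrin subunit that prefers type IV collagen, had -0.51 ± 0.20 and its partner Itgb1 had 0.09 ± 0.18. Over the 5 lists the unadjusted p was under 0.05 for 6 of 54 genes, against 14% of all genes.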

How the data were processed

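Each of the 8 samples is 1 rat read on a 1-colour Cy3 array. Per the file headers, Agilent Feature Extraction 10.7.3.1 made the intensity values used, processed signals corrected for background and spatial trend within 1 array and not scaled between arrays. The deposited flag columns hold other values, 0 or 1 per spot. The authors' deposited value table holds the log2 of log2 signals: 2 to the power of its values equals the quantile-normalized log2 signal (median absolute difference 9.89e-10), so it served as an alternative. Per the submitters' processing notes limma 3.6.9 was used, with no role given.

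Controls and outlier-marked spots were dropped, spots of a probe averaged, and log2 signals scaled to each array's 75th percentile. Probes above background (majority of spots) on at least 4 of 8 arrays were kept, 21248 of 30367, and the brightest probe of a gene was used. Of 30367 probes 18006 found a symbol through the RefSeq accession table of GRCr8 and 12361 did not. The headers name build rn4 for the array design, so no coordinates are printed but those of the RefSeq promoter windows. Groups were compared with limma 3.58.1 in R 4.3.3 (two-sided, Benjamini-Hochberg over all genes), tested on simulated data. The chains and lists were chosen with earlier results of these data known. Named were all fibrillar and Col4 chains, up to 3 of each other class, and the 2 brightest of a pathway list. The brightest of a marker list was named too. The 8 rats are separate animals per the series' design text. Same-numbered arrays did not deviate together (correlations of -0.02, -0.24, -0.33 and -0.20 across genes), so replicate number was not used as a block.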

Additional observations from a re-analysis of the deposited data

Results flagged for a closer look

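In 3 of 40 groups of 4 arrays examined (20 chains or chain classes in each treatment), 1 array lay far from the other 3, with a gap to the nearest of them above Dixon's 95% critical share of the group's range. Chance gives about 1 in 20 groups. Col7a1 was at -0.99 on saline replicate 3, against -4.63 to -4.09 on the other saline arrays. Col8a1 was at -3.23 on saline replicate 3, against -1.58 to -1.49. Col9a2 was at -6.10 on saline replicate 4, against -5.38 to -5.24. All are scaled log2 signals, and 2 of the 3 are from saline replicate 3, where Col7a1 was high and Col8a1 low. That array had the highest fibroblast marker mean of the saline arrays (1.47). It also had their highest alveolar type 2 (1.38), smooth muscle (1.04) and alveolar type 1 (1.02) marker means. The airway, leukocyte, mesothelial, red cell and endothelial means were highest on other saline arrays.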

How the results depend on the processing

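Over 20 other settings no collagen chain was called, the fibrillar median stayed between 0.44 and 0.74 and the Col4 median between -0.56 and -0.27. With 1 array left out they were 0.44 to 0.73 and -0.56 to -0.27, and the collagen counts were 0. The number of genes called lower, 11, became 21 with normexp and either scaling, 19 in the deposited table and 17 with trend and robust variance. With a replicate block, and without saline replicates 2 and 3 (chosen after seeing the data), 0 genes were called higher and 0 lower. The block left every collagen call as it was, and replicate numbers pair no samples here. Genes called higher, 264, became 54, 121, 116 and 134 without saline replicates 1 to 4, 102 and 76 without monocrotaline replicates 1 and 4, and 281 at most. Genes called lower became 0, 2, 1, 4, 2, 95, 5 and 2 in the order of the 8 arrays. In 5 chains the sign changed under at least 1 setting. Col7a1 was at -0.027 with quantile normalization, -0.12 and -0.040 with normexp and 75th percentile or quantile scaling, and -0.050 in the deposited table. Col9a2 was at 0.025 with normexp and quantile scaling and 0.15 without saline replicates 2 and 3, where Col14a1 was at -0.046. With 1 array left out Col7a1 spanned -0.42 to 0.91, Col9a2 -0.34 to 0.29, Col13a1 -0.35 to 1.13 and Col2a1 -0.22 to 0.14. In the other 13 chains the sign was the same in every setting run. The filter on all 8 arrays leaves out Col13a1 and Col9a2. Detection on all 8 arrays held for 16 chains, and for 17 with a flag on any spot. The cause of these changes was not tested.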

Other observations

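Col13a1 and Col7a1 shared their 3 highest arrays, in the same order, with Tcf21, a transcription factor of lung fibroblasts, and with P4ha3, a collagen prolyl 4-hydroxylase subunit. These genes were picked after their values were seen, and the likeness was not tested. Tcf21 gave scaled log2 signals of -2.02, -4.55, -0.19 and -2.67 on saline replicates 1 to 4 and -0.75, -0.90, -4.12 and -2.25 on monocrotaline replicates 1 to 4. P4ha3 gave -5.18, -6.20, -3.74 and -6.00 against -3.88, -4.72, -6.66 and -5.44. Saline replicate 3 was the highest array in all 4 genes, followed by monocrotaline replicates 1 and 2. Monocrotaline replicate 3 was lowest in Col13a1, Col7a1 and P4ha3, and saline replicate 2 in Tcf21. P4ha3 was dim and was above background on only 3 of the 4 saline arrays. The same 3 highest arrays, in that order, were found in other listed genes. Among them were Tnc, Ddr2 and Mrc2 of the pathway lists and Pdgfrb of the smooth muscle and pericyte markers. Loxl1, a lysyl oxidase-like crosslinking enzyme picked in the same way, had the widest log2 fold change of the 54 collagen pathway genes measured, 1.91 ± 0.87 (SE, n = 4 per group, limma adjusted p = 0.377).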
